A study of Mus musculus with 14 samples.

Results

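Transcript levels of 8 let-7 target genes of cell growth and the cell cycle were followed in 14 whole mouse fetuses. The genes were Mycn, Myc, Ccnd1, Ccnd2, Cdc25a, Cdk6, Nras and Pgrmc1, chosen by name because each is known as a target of the let-7 family, and all 8 of 8 were found among the 18132 named genes of the table. All fetuses were wild type, of the F1 cross C57BL/6Jx129S1/SvlmJ, and were taken whole at gestational day 12.5. As zygotes they had been injected with let-7f-5p mimic, an LNA-modified synthetic microRNA given at what the labels call a stress-relevant concentration (3 females and 2 males), or with nuclease-free water as vehicle (5 females and 4 males). Zygotes of both arms were cultured in KSOM medium and then carried by CD1 recipient dams. The series title asks whether more let-7f in the zygote alters later growth in a sex-specific way. No label ties a fetus to a dam or litter, so the tests rest on the variation among these fetuses, some of which may share a dam.

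let-7 microRNAs bind messenger RNAs through their seed, the bases near the 5′ end, and lower the stability and translation of transcripts whose 3′ UTR carries matching sites. In embryos the family is low in early, fast-dividing cells and accumulates with differentiation, and its targets include drivers of growth. MYC and MYCN are transcription factors that raise ribosome production and growth, and NRAS is a membrane GTPase that passes growth factor signals to the ERK kinases. Cyclins D1 and D2 activate the kinases CDK4 and CDK6 at the entry to S phase, and CDC25A is a phosphatase that removes inhibitory phosphates from cyclin-dependent kinases. PGRMC1 is a haem-binding membrane protein linked to progesterone responses and cholesterol metabolism.

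The sequence of the injected mimic is shown with those of natural relatives because the seed, in capitals (bases 2 to 8 from the 5′ end), defines which sites the family shares. In the RefSeq table (GRCm38.p6) 11 mature mouse microRNAs from 13 loci shared this seed. The mimic was identical to mmu-let-7f-5p, which 2 loci encode, at chr13:48537889-48537910 on the minus strand and at chrX:151912353-151912374 on the plus strand. Counted from the 5′ end of let-7f, let-7a differed by A12G, let-7g by A12U and U18C, and miR-98 by G11A, A12G and A19U, all outside the seed.
let-7f-5p mimic: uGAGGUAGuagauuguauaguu
mmu-let-7a-5p: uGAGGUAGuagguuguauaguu
mmu-let-7g-5p: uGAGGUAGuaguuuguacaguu
mmu-miR-98-5p: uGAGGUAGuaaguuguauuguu

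Seed matches of 7 or 8 bases were sought in the longest annotated 3′ UTR of each gene (GENCODE M21, GRCm38). The 8 genes held 11 matches in 7 genes. None was an 8mer, 2 were 7mer-m8 matches (CTACCTC, opposite bases 2 to 8) and 9 were 7mer-A1 matches (TACCTCA, opposite bases 2 to 7 and followed by an A). The matches are shown because they are the places where the mimic could pair with these transcripts. Each is printed as 22 bases of the transcript strand with the match in capitals.
Mycn first match, chr12:12936499-12936520, minus strand: taagtactgtaagaaTACCTCA
Mycn second match, chr12:12936128-12936149, minus strand: tagagcactttgaaaTACCTCA
Ccnd1, chr7:144930598-144930619, minus strand: ggttcctgttcacaaTACCTCA
Ccnd2 first match, chr6:127128300-127128321, minus strand: aaagagagtattcttTACCTCA
Ccnd2 second match, chr6:127128222-127128243, minus strand: ttttcgttttcctaaTACCTCA
Ccnd2 last match, chr6:127125586-127125607, minus strand: tatccttctgccatgTACCTCA
Cdc25a, chr9:109892733-109892754, plus strand: tatcatcctaggagCTACCTCt
Cdk6, chr5:3521624-3521645, plus strand: tttaaggagtgagtgTACCTCA
Nras first match, chr3:103064360-103064381, plus strand: cctcttcagaataaCTACCTCc
Nras second match, chr3:103066917-103066938, plus strand: agtgaaggtctgcttTACCTCA
Pgrmc1, chrX:36606004-36606025, plus strand: tgtgtttaatggtttTACCTCA

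Ccnd2 carried the most matches, 3, a number reached by 0.666% of 15475 tested genes with an annotated 3′ UTR. Its first and second matches lay 2028 and 2106 bases after the stop codon and its last at 4742. Mycn and Nras carried 2 each (reached by 3.16% of genes), and Ccnd1, Cdc25a, Cdk6 and Pgrmc1 carried 1 each. Myc had none in its 3′ UTR, which is longer than that of 23.1% of these genes; this says only that these letters were not in the window searched. At least 1 match was found in 16.9% of the 15475 genes, and an 8mer in 3.70%. The UTRs of the genes differed widely in length. That of Cdk6 spanned 10217 bases, longer than in 99.7% of these genes, and that of Ccnd2 5173 bases, longer than in 95.7%. Mycn had a UTR of 913 bases and Pgrmc1 one of 1188, close to the median of 1174.

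**Figure D1:**
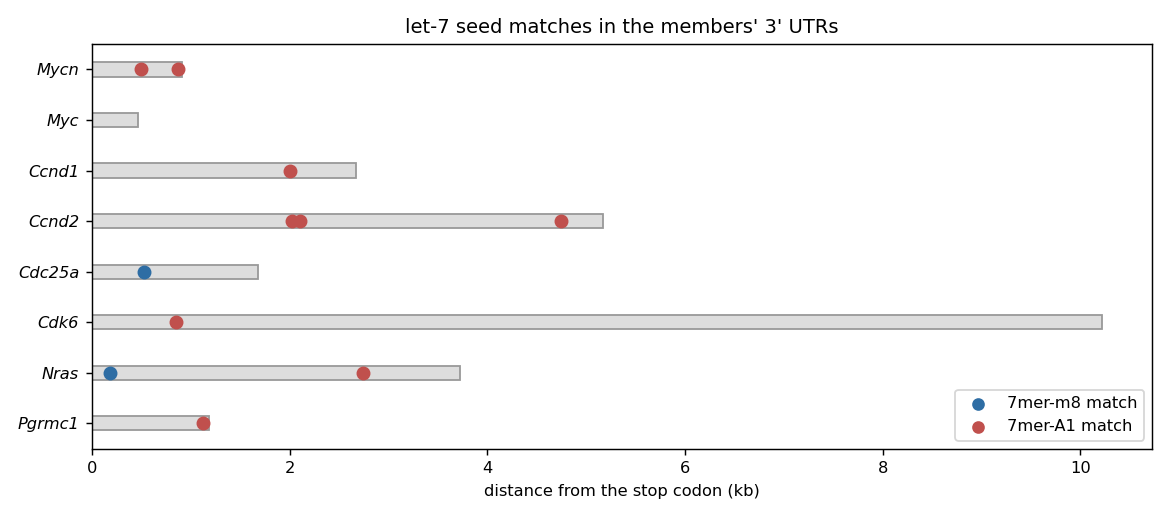
Positions of let-7 seed matches along the annotated 3′ UTRs of the 8 genes. Grey bars give the UTR length in kilobases from the stop codon, and points give 7mer-m8 (blue) and 7mer-A1 (red) matches; Ccnd2 holds 3 matches, and the UTR of Cdk6, of 10217 bases, holds 1.

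The libraries held between 27709934 recovered reads (let-7f male 1) and 42898166 (let-7f female 1), and values are the deposited normalized counts, in which reads are divided by 1 factor per library. All 12 markers of fetal tissues (among them Afp, Col2a1, Myog and Tubb3) were above 0 in each library. Some libraries stood apart. Ribosomal protein genes took 14.6% of reads in let-7f male 1, 8.96% in vehicle male 2 and 6.61% in vehicle female 1, and between 3.71% and 5.70% in the other libraries. Vehicle female 2 had a liver score of -5.80, with the albumin gene Alb at 43.8 against a median of 20553. Vehicle male 1 had a trophoblast score of 1.25, read from the 5 of 14 trophoblast and decidua genes that could be tested. Of these, Prl3b1 was near the floor, with a median of 6.20, and a gene so scarce can move a score of 5 genes. A score is the mean log2 deviation of a list's genes from their means over the 14 libraries. In whole fetuses, fewer cells of a type and less RNA per cell cannot be told apart.

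None of the 8 transcripts passed the test for a let-7f change in either sex. In each comparison every gene's let-7f values overlapped its vehicle values, though the share of all genes that overlap in this way was not counted. limma with Benjamini-Hochberg adjustment over 17400 genes called 0 of 8. The members' values are given by role, starting with the transcription factors, and their changes follow.

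Mycn had 931, 748 and 1043 normalized counts in let-7f females and 746 and 1196 in let-7f males, against 919, 1104, 1184, 1038 and 1325 in vehicle females and 739, 877, 1005 and 1272 in vehicle males. The let-7f females occupied the low side of the vehicle female range, with let-7f female 2 below all 5 vehicle females, and the males of both arms covered the same range. Myc had 996, 1447 and 1000.01 in let-7f females and 1021 and 1209.98 in let-7f males, against 1425, 766, 1054, 1075 and 894 in vehicle females and 845, 1453, 1358 and 1003 in vehicle males. Its highest values came from vehicle male 2 and let-7f female 2 and its lowest from vehicle female 2, so no arm was set apart. The ratio of Mycn to Myc within a library spanned 0.517 in let-7f female 2 to 1.482 in vehicle female 5.

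Ccnd1, which encodes cyclin D1, had 11478, 10478 and 10315 in let-7f females and 9014 and 14380 in let-7f males, against 8589, 16308, 14017, 10922 and 14941 in vehicle females and 11379.6, 8581, 10199 and 13422 in vehicle males. The let-7f females lay close together inside the wider range of vehicle females, whose lowest value came from vehicle female 1. Ccnd2, encoding cyclin D2, had 28017, 22861 and 16391 in let-7f females and 11779 and 27770.4 in let-7f males, against 11561, 34990.0, 31388, 20278 and 25026 in vehicle females and 26833, 10187, 22871 and 29358 in vehicle males. The values of let-7f male 1, vehicle female 1 and vehicle male 2 were the 3 lowest of all, and the let-7f males alone spanned 2.36-fold. The Ccnd2 to Ccnd1 ratio ran between 1.19 in vehicle male 2 and 2.44 in let-7f female 1.

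Cdk6, the kinase partner of the D cyclins, had 1659, 1832 and 1580.08 in let-7f females and 986 and 1560.18 in let-7f males, against 1177, 1894, 1923, 1396 and 1427 in vehicle females and 1959, 1009, 1761 and 1545 in vehicle males. Again let-7f male 1, vehicle male 2 and vehicle female 1 were lowest. Cdc25a, the phosphatase gene, had 3484, 3041 and 3693 in let-7f females and 2995 and 3498 in let-7f males, against 3154, 3566, 3547, 3257 and 3942 in vehicle females and 3439, 2798, 2965 and 3412 in vehicle males. It was the steadiest of the genes, with a highest value 1.41 times the lowest over all 14 fetuses.

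Nras, the GTPase gene, had 6938, 5992 and 5661 in let-7f females and 4742 and 6833 in let-7f males, against 4756, 7824, 7744, 6243 and 6973 in vehicle females and 6997, 4428, 6235 and 7293 in vehicle males. Its 3 lowest values came from the same libraries as those of Ccnd2 and Cdk6. Pgrmc1 had 5032, 4317 and 5945 in let-7f females and 6248 and 5526 in let-7f males, against 6929, 5515, 4953, 6041 and 6258 in vehicle females and 5114, 7279.55, 5487 and 5088 in vehicle males. Its highest values came from vehicle male 2 and vehicle female 1.

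**Figure D2:**
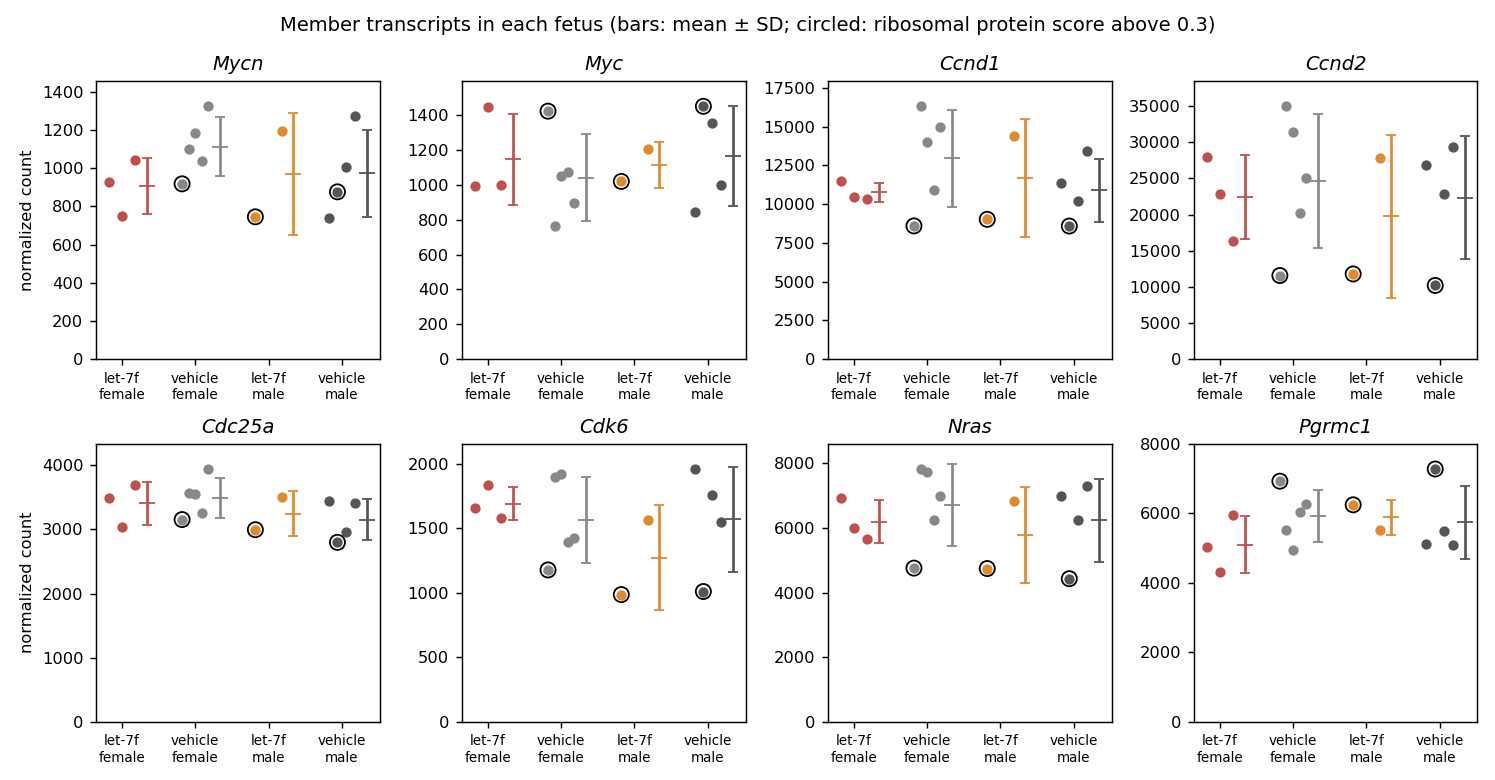
Normalized counts of each gene in each fetus, on linear axes from 0. Points are fetuses, bars to their right give the group mean and SD, and circled points are the 3 libraries with a ribosomal protein score above 0.3; let-7f and vehicle points overlap in every panel, and the circled points are lowest for Ccnd2, Cdk6 and Nras.

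In females, changes were small against the spread between fetuses. Mycn averaged 907 ± 149 (SD, n = 3) in let-7f females and 1114 ± 153 (SD, n = 5) in vehicle females, a log2 change of -0.30 (SE 0.203, limma adjusted p = 0.9998), which had the smallest unadjusted limma p of the 8 genes, 0.165. Ccnd1 averaged 10757 ± 630 in let-7f females and 12955 ± 3143 in vehicle females (log2 change -0.23, SE 0.223). Pgrmc1 averaged 5098 ± 816 in let-7f females and 5939 ± 749 in vehicle females (log2 change -0.22, SE 0.157). The other changes lay between -0.10 (Nras) and 0.15 (Myc). In all, 6 of 8 lay lower, with a median of -0.08, beside 50.9% of all 17400 genes and a median of -0.00387. limma called 0 of 8 against 0.00575% of all genes, and 0 of 8 had an unadjusted limma p under 0.05 against 0.81%. edgeR on the recovered reads called 0 of 8 against 0% and DESeq2 0 of 8 against 0.0115%.

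In males, Cdk6 averaged 1273 ± 406 (SD, n = 2) in let-7f males and 1568 ± 409 (SD, n = 4) in vehicle males, the change farthest from 0 at -0.30 on the log2 scale (SE 0.274, limma adjusted p = 0.604). Ccnd2 averaged 19775 ± 11308 in let-7f males and 22312 ± 8513 in vehicle males (log2 change -0.19, SE 0.4999). The remaining genes lay between -0.11 (Nras) and 0.08 (Ccnd1). Of the 8, 5 lay lower, with a median of -0.02, beside 50.1% of all genes and a median of -0.00194. limma called 0 of 8 against 0% of genes, and 0 of 8 had an unadjusted p under 0.05, where 10.8% of all genes did. edgeR called 0 of 8 against 0%, and DESeq2 0 of 8 against 0.334%. Both let-7f males decided the sign. With let-7f male 1 removed, 1 of 8 lay lower (Pgrmc1, at -0.04) and the median was 0.16. With let-7f male 2 removed, 7 of 8 lay lower and the median was -0.30. Each of these fits rests on a lone let-7f male, assumed to vary like the other groups.

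Over both sexes, weighted equally, the changes spanned -0.16 (Mycn, SE 0.158, limma adjusted p = 0.947) to 0.06 (Myc, SE 0.175, adjusted p = 0.968). The 95% intervals show what size of change these data leave possible. They ran between -0.198 and 0.205 for Cdc25a, the narrowest, and between -0.839 and 0.573 for Ccnd2, the widest. For Nras the interval was -0.444 to 0.241, for Cdk6 -0.468 to 0.307 and for Pgrmc1 -0.349 to 0.175. On balance 6 of 8 lay lower (median -0.08), beside 48.7% of all genes (median 0.00604). limma called 0 of 8 against 0% of genes, with 0 of 8 at an unadjusted p under 0.05 against 2.78%. edgeR called 0 of 8 against 0%, and DESeq2 0 of 8 against 0.046%. The count of lower genes was 1 of 8 without let-7f male 1 (median 0.07) and 8 of 8 without let-7f male 2 (median -0.24).

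**Figure D3:**
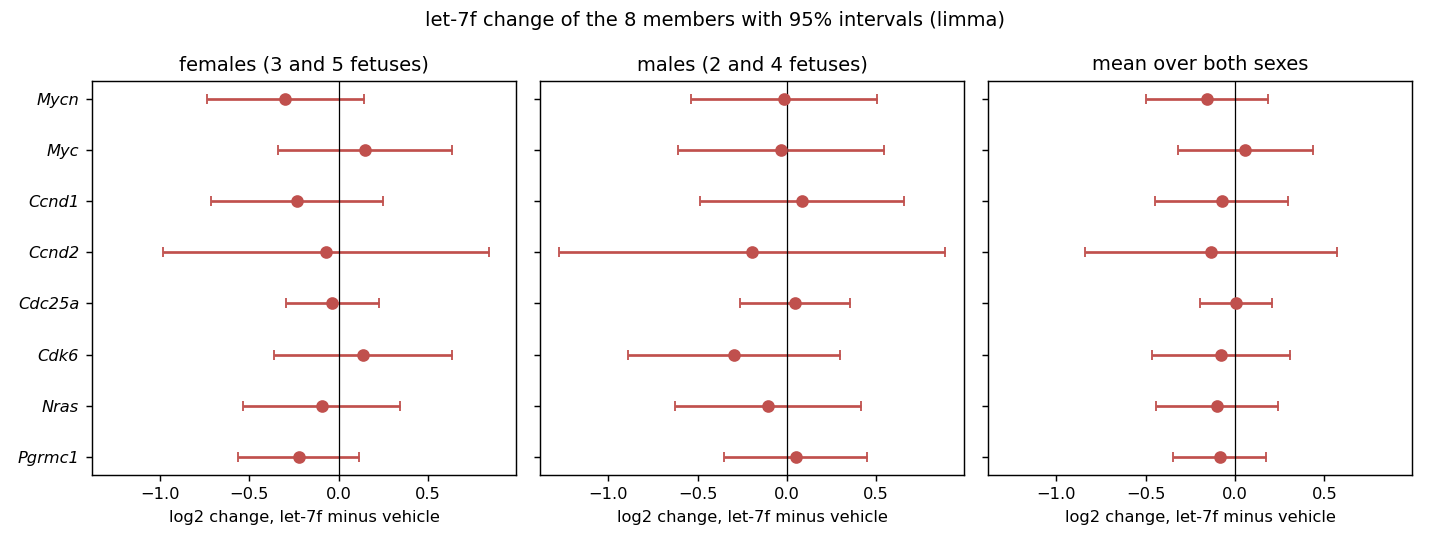
Log2 change of each gene, let-7f minus vehicle, by sex and averaged over the sexes. Points are limma estimates and bars their 95% intervals; every interval includes 0, and those of Ccnd2 are the widest.

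Whether the let-7f change differed between the sexes was tested directly. The difference, males minus females, spanned -0.43 for Cdk6 (95% interval -1.21 to 0.343, limma adjusted p = 0.595) to 0.31 for Ccnd1 (95% interval -0.432 to 1.06, adjusted p = 0.684), and 4 of 8 lay lower. limma called 0 of 8 against 0% of all genes, and 0 of 8 had an unadjusted p under 0.05 against 8.53%. edgeR called 0 of 8 against 0%, and DESeq2 0 of 8 against 0.162%. Among vehicle fetuses, males minus females, 7 of 8 lay lower in males with a median of -0.13, beside 53.2% of all genes and a median of -0.0123. Cdc25a had the smallest unadjusted limma p there (0.201), with a mean of 3154 ± 322 among the 4 vehicle males and of 3493 ± 309 among the 5 vehicle females (SD), a log2 difference of -0.15 (SE 0.111). None of the 8 passed limma (0.0402% of all genes did), none had an unadjusted p under 0.05 (2.63%), and none was called by edgeR (0.0287%) or DESeq2 (0.0691%). The groups of vehicle males and vehicle females overlapped for 8 of 8, and the share over all genes was not counted.

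Seed matches beyond the 8 genes were also examined. Over both sexes the 2612 tested genes with a match had a median log2 change of -0.03, with 58.0% lower, against 0.00803 and 48.3% among 12863 genes with a 3′ UTR and no match. In males these medians were -0.10 and 0.00421, and in females 0.03 and -0.0108. Genes were then compared within classes of UTR length. Among genes with a UTR of 2000 to 4000 bases, the male medians were -0.15 for 925 genes with a match and -0.16 for 2394 without. Among those of 1000 to 2000 bases, they were -0.07 (654 genes) and -0.09 (3341 genes), and from 4000 bases up -0.14 (633 genes) and -0.18 (667 genes). Under 1000 bases, both were positive, at 0.11 (400 genes) and 0.17 (6461 genes). In the 3 classes from 1000 bases up, the male median was slightly higher with a match than without, and under 1000 bases it was lower. Over both sexes the medians were -0.03 with and -0.03 without a match from 1000 to 2000 bases, -0.05 and -0.05 from 2000 to 4000, and -0.03 and -0.04 from 4000 up. Under 1000 bases they were 0.03 with and 0.07 without a match. In females they were -0.04 with and -0.05 without under 1000 bases, 0.00894 and -0.000663 from 1000 to 2000, 0.04 and 0.04 from 2000 to 4000, and 0.07 and 0.08 from 4000 up.

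The levels of the genes were compared per kilobase of transcript, since a longer transcript gives more reads. As the mean of 14 fetuses, Ccnd2 had 3603 normalized counts per kilobase, Ccnd1 3133 and Pgrmc1 3067, followed by Nras at 1417 and Cdc25a at 920.25. Myc had 508, Mycn 377 and Cdk6, the longest transcript, 135. The lengths are of 1 annotated transcript per gene, and the first 3 levels differ by less than the spread of Ccnd2 between fetuses. Ccnd2 varied most. Its SD within groups was 0.643 on the log2 scale, larger than that of 94.8% of 10027 genes with a mean of at least 500, whose median was 0.274. That of Cdc25a, 0.140, exceeded 12.5% of them.

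The genes did not vary independently between fetuses. Ccnd2 and Nras moved almost in parallel over the 14 libraries (Pearson r = 0.987, Spearman rho = 0.947, each with adjusted p = 0.00028 by a two-sided permutation test of 100000 resamples over 28 pairs, the smallest they can give). Without the 2 libraries farthest from the Ccnd2 median, r was 0.973. Ccnd1 and Nras had r = 0.902 and rho = 0.890 (adjusted permutation p = 0.000373 and 0.00084, and r = 0.915 without the 2 libraries farthest in Ccnd1), and Ccnd2 and Cdk6 r = 0.865 and rho = 0.684 (adjusted permutation p = 0.00147 and 0.0302, and r = 0.770 without the 2 farthest in Ccnd2). Pgrmc1 went the other way. It had r = -0.814 and rho = -0.789 with Cdk6 (adjusted permutation p = 0.00174 and 0.00851, and r = -0.785 without the 2 farthest in Cdk6). Of the 28 pairs 17 had a positive r, and 14 passed for both coefficients. The share of pairs that pass among other genes was not counted, so whether these genes move together more than others was not tested. Mycn and Myc did not follow each other (r = -0.269, rho = -0.266, adjusted permutation p = 0.409 and 0.419, and r = -0.654 without the 2 farthest in Mycn).

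This shared variation moved with the ribosomal protein score of the libraries. Cdk6 had r = -0.914 and rho = -0.886 with the score over 14 libraries (adjusted permutation p = 0.00016 and 0.0008 over 8 genes), r = -0.875 without the 2 libraries farthest from the median score, vehicle male 2 and let-7f male 1, and r = -0.956 among the 9 vehicle libraries alone. For Ccnd2 the values were r = -0.831 and rho = -0.648 (adjusted permutation p = 0.00176 and 0.0401), -0.797 without the 2 and -0.911 in vehicle libraries. Nras had r = -0.793 and rho = -0.622 (adjusted permutation p = 0.00373 and 0.0425), -0.675 without the 2 and -0.880 in vehicle libraries. Pgrmc1 rose with the score, with r = 0.707 and rho = 0.824 (adjusted permutation p = 0.00724 and 0.00168), 0.870 without the 2 and 0.932 in vehicle libraries. For Ccnd1, r = -0.589 passed (adjusted permutation p = 0.0251) and rho = -0.451 did not (0.175), and without the 2 libraries r was -0.381. Mycn (r = -0.345, rho = -0.0242), Cdc25a (r = -0.432, rho = -0.130) and Myc (r = 0.174, rho = 0.204) did not pass (smallest adjusted permutation p = 0.181).

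**Figure D4:**
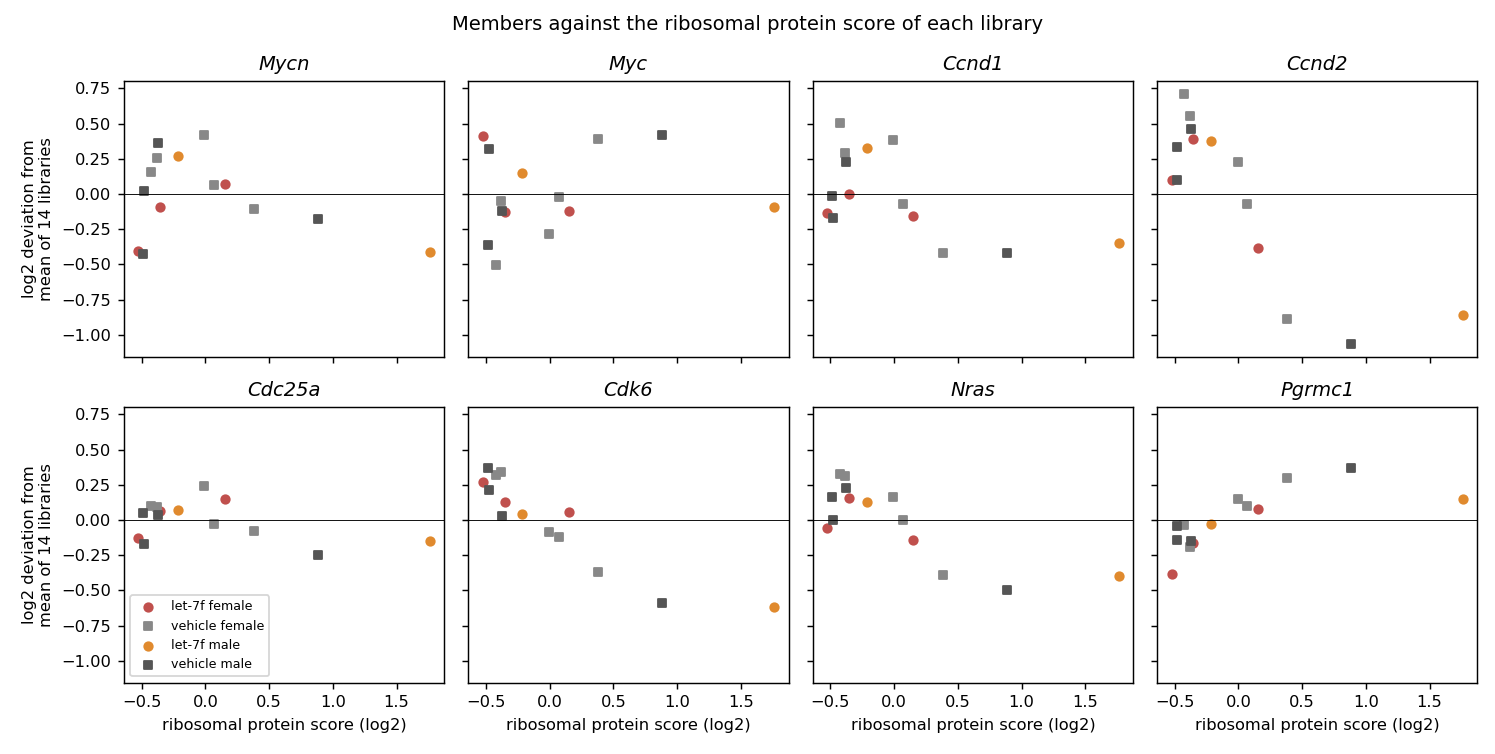
Log2 deviation of each gene from its mean over 14 libraries against the library's ribosomal protein score, itself a mean log2 deviation. Circles are let-7f and squares vehicle fetuses; Cdk6, Ccnd2 and Nras descend with the score and Pgrmc1 ascends, in vehicle libraries too.

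Across all genes this relation ran with transcript length. Over 9515 genes with a mean of at least 500, ribosomal protein genes left out, the median r with the score was 0.968 for transcripts under 1000 bases and 0.876 for those of 1000 to 2000. It was 0.260 for 2000 to 3000 bases, -0.482 for 3000 to 4500, -0.762 for 4500 to 6000 and -0.782 from 6000 up. Pgrmc1, of 1857 bases, had the only r above 0.2 among the 8 genes, while Cdk6 (11525 bases), Ccnd2 (6330) and Nras (4470) had the 3 lowest. Ccnd1 (3740 bases, r = -0.589) and Cdc25a (3632 bases, r = -0.432) lay beside the median of their class, and Mycn (2674 bases, r = -0.345) below that of its own. For 7 of the 8 genes r lay between the quartiles of the length class, and for Cdk6 it lay under the lower quartile of -0.885. These correlations are a description over the same 14 libraries, in which genes are not independent. The part of transcript length or library makeup in the members' values was not tested.

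**Figure D5:**
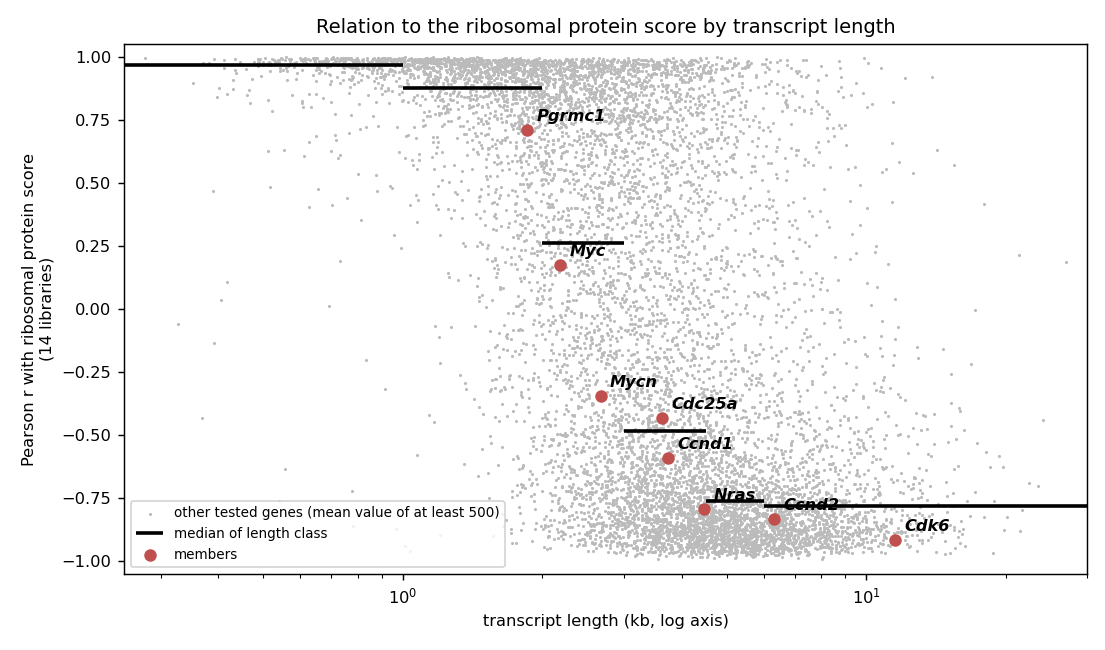
Pearson r with the ribosomal protein score over 14 libraries, against transcript length in kilobases on a log axis. Grey points are 9515 genes with a mean of at least 500, black lines the medians of length classes and red points the 8 genes; medians descend with length between 0.968 and -0.782, and the red points descend with length too.

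The ribosomal protein score was 1.76 in let-7f male 1, while let-7f male 2, at -0.21, lay inside the range of vehicle males (-0.49 to 0.88); let-7f females had -0.53 to 0.15 and vehicle females -0.42 to 0.38. The median log2 change of these genes was 0.90 in let-7f males (81 of 85 higher), and without let-7f male 1 it was -0.09 (15 of 85 higher). In let-7f females it was -0.18 (2 of 85 higher), and without let-7f female 2 it was -0.04 (27 of 85 higher). limma called 0 of them in each sex. With the 3 libraries of a score above 0.3 left out together, so that let-7f male 2 was compared with vehicle males 1, 3 and 4, the male log2 changes of the 8 genes were 0.31 for Ccnd1, 0.29 for Mycn, 0.21 for Myc, 0.10 for Cdc25a, 0.08 for Ccnd2, 0.08 for Pgrmc1, 0.00126 for Nras and -0.16 for Cdk6. Those of Mycn, Myc, Ccnd2 and Nras had the opposite sign to the values fitted with all libraries and no covariate. With the score as a covariate, the male changes were 0.61 for Ccnd2 (limma adjusted p = 0.431), 0.43 for Ccnd1 (limma adjusted p = 0.437), 0.24 for Nras, 0.16 for Mycn, 0.14 for Cdc25a, 0.14 for Cdk6, -0.13 for Myc and -0.18 for Pgrmc1. The unadjusted limma p was 0.0384 for Ccnd2 and 0.0452 for Ccnd1, under 0.05 for these 2 of the 8. That fit holds only 2 let-7f males, and let-7f male 1 had the highest score of all libraries. Of all 17400 genes, 1974 had an unadjusted limma p under 0.05 for that male change. In that setting Mycn, Ccnd2, Cdk6, Nras and Pgrmc1 changed sign. limma called none of the 8 genes in either setting.

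For each gene the 3 genes of closest pattern were sought among 14014 others, by the Pearson r of deviations from group means over 14 libraries, given as a description. Ccnd2 was closest to Nras (r = 0.991), the lymphatic receptor gene Flt4 (0.991) and Usp49 (0.988). Nras was closest to Uck2 (0.992), Ccnd2 and Khnyn (0.987), and Cdk6 to Adgrf5 (0.981), the splicing factor gene Srsf10 (0.977) and Qser1 (0.976). Cdc25a was closest to Ankrd10 (0.940), Otud6b (0.924) and Wee1 (0.922). Wee1 encodes a kinase that adds the inhibitory phosphate that CDC25 phosphatases remove. Mycn was closest to Lmnb2 (0.960), which encodes a nuclear lamin, Srsf4 (0.957) and Ccar2 (0.937). Ccnd1 was closest to Bend3 (0.973), Ogfod1 (0.960) and Glis2 (0.957), and Pgrmc1 to Eid1 (0.980), Txndc9 (0.978) and Mipep (0.976). The likeness was lowest for Myc, whose closest genes were Pzp (0.883), Ngef (0.864) and Kcne4 (0.854).

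Partners and downstream genes were read from 8 pathway lists, and limma called 0 genes in any of them in the let-7f comparisons. Of 24 partners of the G1 to S transition, 15 lay higher in let-7f males (median log2 change 0.11) and 8 in let-7f females (median -0.04, and 0.00283 without vehicle female 5). The members with the smallest p were Cdc25c and E2f1. Cdc25c is on this list although it encodes a phosphatase of mitotic entry. It had 1979 ± 672 (SD, n = 2) in let-7f males and 1291 ± 174 (SD, n = 4) in vehicle males (log2 change 0.58, SE 0.188). E2f1, a transcription factor of S phase, had 3433 ± 1334 in let-7f males and 2186 ± 442 in vehicle males (0.61, SE 0.216). Neither passed (limma adjusted p = 0.447 for each), and without let-7f male 1 the changes were 0.23 for Cdc25c and 0.21 for E2f1. Of 26 proliferation genes, 24 lay higher in let-7f males (median 0.27) and 3 in let-7f females (median -0.12), and Ccnb2, a mitotic cyclin gene, had 0.46 and Cenpa, of the centromere, 0.69 in males (0.31 and 0.19 without let-7f male 1). The male median of the list was 0.22 without let-7f male 1 and 0.23 without let-7f male 2. The female median was -0.04 without let-7f female 2 (5 of 26 higher) and -0.20 without let-7f female 3 (3 of 26 higher). The difference of the let-7f change, males minus females, was positive for 25 of these 26 genes, and limma called 0. The summed value of the 26 was between 154959 and 178377 in let-7f females and between 184674 and 204340 in let-7f males, against 165612 to 195611 in vehicle females and 155364 to 174394 in vehicle males. The vehicle groups thus differed in the opposite sense, with 25 of 26 genes lower in vehicle males than in vehicle females (median -0.14), and both let-7f comparisons use them. Markers of some tissues lay on different sides of vehicle in the sexes too, without passing the test. The whole fetus and trophoblast lists did not. Of 12 whole fetus markers, 9 lay higher in let-7f females and 7 in let-7f males. Of 5 trophoblast and decidua genes, 4 lay higher in let-7f females and 3 in let-7f males. Of 14 matrix genes 0 lay higher in let-7f males (median -0.58) and 14 in let-7f females (median 0.20), and the matrix score was between -0.60 and -0.22 in let-7f males, against 0.16 to 0.23 in vehicle males. Of 12 neural progenitor genes 10 lay higher in let-7f males (median 0.28) and 0 in let-7f females (median -0.24), and of 3 embryonic globin genes 3 (median 2.07) and 0 (median -0.25). Without let-7f male 1, 12 of the 12 neural progenitor genes lay higher in males (median 0.39), and without let-7f male 2, 6 did (median 0.21). Without let-7f female 2 the female medians were 0.10 for matrix, -0.15 for neural progenitor and -0.05 for globin genes. Without let-7f female 3 they were 0.38, -0.34 and -0.50. The neural progenitor score was between 0.17 and 0.18 in let-7f males, against -0.24 to -0.05 in vehicle males, and the globin score between 0.58 and 1.95, against -1.34 to -0.23. In vehicle females the matrix score ran from -0.29 to 0.16, the neural progenitor score from -0.12 to 0.39 and the globin score from -0.44 to 0.78. In let-7f females these ran from -0.22 to 0.39, from -0.29 to 0.02 and from -0.63 to 0.45. Each overlapped the range of vehicle females. How often groups of this size separate over all genes was not counted. limma called 0 of these markers, and their part in the proliferation values was not tested.

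The CDK inhibitors, which restrain the cyclin D kinases, lay higher in 2 of 6 tested genes in males (median -0.14) and 3 of 6 in females (median 0.02). The male median was 0.02 without let-7f male 2 and 0.01 without vehicle male 2, and the female one lay between -0.18 and -0.01 when let-7f female 1 or 3 or vehicle female 2, 3 or 5 was left out. Cdkn2a was too low to be tested. Cdkn2b, an inhibitor of CDK4 and CDK6, was scarce, at 28.1 ± 17.5 in let-7f males and 11.9 ± 3.52 in vehicle males (log2 change 1.08, SE 0.478, limma adjusted p = 0.447), and had a change of 0.43 without let-7f male 1. Cdkn1b had a log2 change of -0.19 (SE 0.112) in females. In the MYC network, 6 of 12 lay higher in males (median -0.14) and 6 of 12 in females (median -0.00780). The male median was 0.13 without let-7f male 1 (8 of 12 higher) and -0.47 without let-7f male 2, and the female one between 0.01 and 0.03 without let-7f female 2 or vehicle female 3 or 5. Mxd1, which opposes MYC on shared sites, had 1048 ± 367 in let-7f males and 1485 ± 126 in vehicle males (log2 change -0.54, SE 0.198), and Zbtb17, a MYC partner in repression, a change of 0.72 (SE 0.286); without let-7f male 1 these were -0.18 and 0.20. Of 24 MYC targets, 19 lay higher in let-7f males (median 0.27) and 5 in let-7f females (median -0.09). Without let-7f male 1, 12 of 24 lay higher and the median was -0.000558, while without let-7f male 2 it was 0.52. Without let-7f female 2, 10 lay higher in females (median -0.02), and without let-7f female 3, 2 did (median -0.19). Shmt1, of one-carbon metabolism, had 2408 ± 558 in let-7f males and 1690 ± 263 in vehicle males (log2 change 0.50, SE 0.174), and Nolc1, of the nucleolus, a change of 0.34 (SE 0.129); without let-7f male 1 these were 0.27 and 0.15.

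Along the RAS-ERK pathway, which NRAS feeds, 8 of 28 lay higher in let-7f males (median -0.17) and 10 of 28 in let-7f females (median -0.04). Without let-7f male 1, 15 of 28 lay higher in males (median 0.04), and without let-7f male 2, 7 did (median -0.48). The female median was 0.00164 without let-7f female 3. Spry4, a feedback inhibitor, had 334 ± 188 in let-7f males and 524 ± 63.7 in vehicle males (log2 change -0.76, SE 0.262, limma adjusted p = 0.447), and a change of -0.16 without let-7f male 1. Fos, an immediate early gene, had a change of -0.73 over both sexes (SE 0.319, limma adjusted p = 0.947). Among 9 relatives of PGRMC1, 6 lay higher in males (median 0.20, and 0.01 without let-7f male 1) and 5 in females (median 0.03, and between -0.04 and -0.00348 without let-7f female 3 or vehicle female 2 or 4), with Paqr5, a membrane progestin receptor gene, at -0.82 (SE 0.450) and Cyb5b at 0.20 (SE 0.117) in males. A list of 24 other let-7 targets had 13 higher in let-7f males (median 0.09) and 7 in let-7f females (median -0.05), with Nme6 at 0.60 (SE 0.257) in males, and 0.15 without let-7f male 1. Without that library 20 of the 24 lay higher in males (median 0.17), and the male median was -0.02 without let-7f male 2 and -0.01 without vehicle male 2. With let-7f male 2 removed, let-7f male 1 was the lone sample of its group. The male changes then included 0.94 for Cdc25c, 1.02 for E2f1 and -1.37 for Spry4. These genes were named for a small p in comparisons that use the same libraries, so this fit is no separate test of them. When let-7f male 1 was removed instead, they were 0.23 for Cdc25c, 0.21 for E2f1 and -0.16 for Spry4, and Paqr5 changed sign (0.05).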

How the data were processed

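Poly-A RNA of 14 whole fetuses was sequenced after stranded TruSeq library preparation, per the labels' protocols. Tools named in the submitters' processing notes include kallisto 0.50.1 and DESeq2 1.48.2, with the build GRCm39 and no role given. The authors deposited 1 normalized signal (normalized counts per the labels) per gene and library, in steps of 1 fixed unit per library. Dividing by that unit gave whole numbers (within 1e-06) for 100% of values in each library, so whole reads could be recovered, between 27709934 and 42898166 per library. The 1 row without a gene name (0.0180% to 0.0334% of reads) was left out. Within groups no 2 libraries looked like duplicates: in 20 pairs, the chi-square of the reads was at least 18.2 times its degrees of freedom.

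Treatment and sex are as the titles of the samples give them. Genes with a mean of at least 10 were tested (17400, with 732 others too low). One mean per treatment and sex was fitted to log2(value + 1) with limma 3.58.1 in R 4.3.3 (eBayes with an intensity trend, 10 residual degrees of freedom), which understates changes of low genes. Two-sided p-values were adjusted over the 17400 genes by the Benjamini-Hochberg method and called under 0.05. On the recovered reads, edgeR 4.0.16 (quasi-likelihood) called 0 genes in each let-7f comparison and DESeq2 1.42.0 (Wald) 8 over both sexes, 2 in females and 58 in males. The alternatives also covered a pseudocount of 0.5 or 5, a minimum mean of 50 or none, 75th percentile scaling, only the groups compared, a replicate block, library weights and each library left out. Leaving out 3 libraries rich in ribosomal protein transcripts, using the ribosomal protein score as a covariate and leaving out each library for the list medians were chosen after seeing the data. The limma procedure was tested on simulated counts. Correlations used 100000 permutations (SciPy 1.17.1). 3′ UTRs and transcript lengths are of the GENCODE M21 transcript with the longest 3′ UTR, on GRCm38, an older build than the one in the notes, and microRNA sequences are from RefSeq (GRCm38.p6).

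The members and the 14 gene lists were chosen with earlier results of these data known. All 8 members are named. From each pathway list the text names genes past the threshold, or else the 2 with the smallest p in the let-7f comparisons, and for each member the 3 genes of closest pattern. Of the genes so chosen, 1 is not reported here.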

Additional observations from a re-analysis of the deposited data

How the results depend on the processing

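None of the 8 genes passed in any setting run for it. Over 45 gene values and 1157 alternatives, 1080 kept their direction and side of the threshold, 65 changed sign and 12 (pathway genes in males, with let-7f male 2 removed) newly passed. The genes called over all 17400 were 0 over both sexes, 1 in females, 0 in males, 0 for the difference between the sexes and 7 by sex among vehicle fetuses. In females the count was 0 with a pseudocount of 5, only the groups compared, edgeR, the replicate block or the 3 ribosomal protein-rich libraries left out, 2 with no filter or DESeq2 and 18 with library weights. DESeq2 gave 8 over both sexes, 58 in males, 27 for the difference and 12 by sex, and a pseudocount of 0.5 gave 1 in males. Fits of only the groups compared were not run over both sexes or for the difference, since those need all 4 groups. With each library left out in turn, the counts ranged 0 to 874 over both sexes, 0 to 1 in females, 0 to 4390 in males, 0 to 3206 for the difference and 5 to 7 by sex. The counts of 874, 4390 and 3206 came without let-7f male 2. Females had 0 without let-7f female 1, 2 or 3 or vehicle female 2 or 3, and males 1 without vehicle female 5.

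Sign changes of the members are log2 changes whose cause was not tested. With 75th percentile scaling, Cdc25a had -0.0141 over both sexes and -0.0167 in males, and Pgrmc1 -0.0107 in males. Cdc25a had -2.36e-06 over both sexes with edgeR, and Mycn 0.00952 in males with DESeq2. With library weights, Cdc25a had -0.0215 over both sexes, Ccnd2 0.0980 in females, and Myc 0.0415 and Ccnd1 -0.0107 in males. With the 3 ribosomal protein-rich libraries left out, the male changes were 0.286 for Mycn, 0.207 for Myc, 0.0831 for Ccnd2 and 0.00126 for Nras. With the score as a covariate, the changes over both sexes were 0.0639 for Ccnd1, 0.192 for Ccnd2, 0.0943 for Cdk6 and 0.0398 for Nras, those in males 0.161 for Mycn, 0.609 for Ccnd2, 0.135 for Cdk6, 0.243 for Nras and -0.181 for Pgrmc1, and the difference for Cdk6 was 0.0822.

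Deviations from group means had r between -0.576 and 0.346 over 16 pairs of same-numbered fetuses. In a group of 2, as the let-7f males, such deviations are exact opposites. This check therefore cannot decide whether the numbers pair fetuses. With the replicate block, Ccnd2 had 0.0179 and Cdc25a 0.0194 in females and Mycn 0.148 in males, all changes of sign.

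With each library left out, the ranges over both sexes were -0.327 to 0.0138 for Mycn, -0.0326 to 0.118 for Myc, -0.243 to 0.0935 for Ccnd1, -0.442 to 0.176 for Ccnd2, -0.0526 to 0.0593 for Cdc25a, -0.246 to 0.0854 for Cdk6 and -0.233 to 0.0303 for Nras. In females they were -0.0320 to 0.267 for Myc, -0.319 to 0.138 for Ccnd2 and -0.0973 to 0.0428 for Cdc25a. In males they were -0.355 to 0.326 for Mycn, -0.176 to 0.0893 for Myc, -0.254 to 0.419 for Ccnd1, -0.813 to 0.424 for Ccnd2, -0.0686 to 0.155 for Cdc25a, -0.627 to 0.0349 for Cdk6, -0.369 to 0.157 for Nras and -0.0393 to 0.169 for Pgrmc1, and for Paqr5 -1.68 to 0.0482. The difference for Ccnd1 ranged from -0.0221 to 0.652. With at least 27709934 reads in each library, the members' counts were high, and with 2 let-7f males the intervals in males were the widest of the 3 let-7f comparisons.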
